A study of Homo sapiens with 8 samples.

Results

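Transcripts of 6 genes that encode secretory products of the prostate were followed through 8 polyadenylated RNA libraries of prostate cancer cell lines. The genes were taken by symbol: the kallikreins KLK2, KLK3 and KLK4, the acid phosphatase ACPP, the spondin SPON2 and the neuropeptide precursor NPY, 6 of the 16126 genes listed in any of 3 deposited tables. NPY was listed in the VCaP table alone, so the C4-2B and CWR-R1 tables held 5 of the 6. Each line was sequenced in a form resistant to enzalutamide, an antiandrogen drug, and in its sensitive form. C4-2BENZR (resistant) and C4-2B (sensitive), a castration-resistant derivative of LNCaP, had 2 libraries each, and both carried luciferase and GFP transgenes. CWR-R1ENZR and CWR-R1, which came from a relapsed prostate xenograft, had 1 library each. VCaPENZR and VCaP, from a vertebral metastasis, also had 1 library each. The sources used here do not give the drug dose, the time under selection or the number of resistant clones behind a line, and each resistant form stands for 1 derived line.

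The kallikreins are secreted serine proteases. KLK3, prostate-specific antigen, liquefies the semen clot, KLK2 is a trypsin-like protease that can activate the KLK3 precursor, and KLK4 is another trypsin-like member of the family. ACPP encodes prostatic acid phosphatase, whose membrane form removes phosphate from extracellular nucleotides. SPON2 encodes a secreted matrix protein and NPY the precursor of a secreted peptide. In luminal cells of the prostate androgen signalling switches on KLK3 and KLK2, which is why blood levels of KLK3 are used to follow treatment.

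KLK3 and KLK2 lie next to each other on chromosome 19 and share much of their promoter sequence, so both windows are shown before their values. They run from 250 bases before the start of transcription to 50 after it, on the plus strand of GRCh38.p14 (RefSeq), at chr19:50854665-50854964 for KLK3 and chr19:50873189-50873488 for KLK2. The first run of capitals is the element known in KLK3 as its proximal androgen response element, and the second is the TATA-like stretch TTTATAG.
KLK3: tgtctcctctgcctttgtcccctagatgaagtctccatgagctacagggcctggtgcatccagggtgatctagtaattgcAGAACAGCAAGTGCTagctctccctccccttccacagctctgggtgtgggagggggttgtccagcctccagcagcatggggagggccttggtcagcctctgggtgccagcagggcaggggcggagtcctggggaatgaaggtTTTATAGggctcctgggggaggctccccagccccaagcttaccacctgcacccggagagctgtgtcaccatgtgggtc
KLK2: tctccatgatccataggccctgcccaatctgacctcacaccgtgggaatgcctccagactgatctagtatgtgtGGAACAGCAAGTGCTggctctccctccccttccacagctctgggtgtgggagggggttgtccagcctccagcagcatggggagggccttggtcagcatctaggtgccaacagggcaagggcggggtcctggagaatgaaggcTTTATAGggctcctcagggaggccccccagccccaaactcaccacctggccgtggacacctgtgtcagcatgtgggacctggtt
In an alignment, 251 of 287 paired bases were identical (87.5%). The element of 15 bases began 170 bases before the KLK3 start and 176 before the KLK2 start, and the KLK2 copy differed from the KLK3 copy at 1 position, A1G, counted from the 5′ end of the element. The stretch GAACAGCAAGTGCT, which both copies hold, was present on either strand of 2 of 35116 RefSeq windows of this length (0.0057%), these being KLK3 and KLK2. TTTATAG on the gene's strand was present in 1.34% of windows. The shorter AGAACA, the first part of the KLK3 element, was present on either strand of 14.8% of windows, among them KLK3 and 1 of 3 SPON2 windows. These motifs were chosen with the sequences in view. None of these motifs, and no TATAAA on the gene's strand (7.33% of windows), occurred in the windows of KLK4, ACPP or NPY. Between the transcripts themselves, 0.778% of the 50-base words of KLK3 also occurred in KLK2 and 0.37% of those of KLK2 in KLK3, so that most stretches of either can be told apart by sequence; the sources used here do not say how the authors assigned reads that match both.

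Unless another scale is named, a level is the deposited value, reads divided by a scaled library size, and a log2 change is one of level + 1. A library held 14503586 to 20248655 reads in listed genes, and the 3 tables were normalized separately. All 9 markers of prostate luminal epithelium were listed with reads in each library. The library labelled VCaPENZR did not resemble the line of its label: ERG, which a gene fusion drives in VCaP, was at 0.179 (3 reads) in it, against 428 in VCaP. Over the 12868 genes of all tables, its log2(RPM + 1), with RPM as reads scaled to 1000000 reads in listed genes, correlated at 0.728 with VCaP, 0.940 with CWR-R1ENZR and 0.890 with CWR-R1, as a description across genes that are not independent. Every result from that library is therefore given as one of the library labelled VCaPENZR. Its levels of the genes described here are set beside CWR-R1ENZR and CWR-R1, where listed there, as well as VCaP. Its list counts, and its marker values other than ENO2, are set beside VCaP alone.

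In the C4-2B lineage the kallikreins moved apart. KLK3 stood at 49.2 and 48.1 in the C4-2BENZR libraries, against 2067 and 2024 in the C4-2B libraries. The groups lay far apart, and KLK3 fell 42.1-fold, to 48.6 ± 0.797 in C4-2BENZR, against 2045 ± 30.3 in C4-2B (SD, n = 2 each), a log2 change of −5.37 ± 0.05 (SE; limma, adjusted p = 1.47e-20). Only 7 of 13280 genes tested, KLK3 among them, had a called change that low (0.0527%). KLK2, the gene beside it, did the opposite: it stood at 211 and 225 in C4-2BENZR, against 107 and 109 in C4-2B. Both resistant libraries were above both sensitive ones, and KLK2 rose 2.02-fold (218 ± 9.81 against 108 ± 1.99; log2 change 1.01 ± 0.06, limma adjusted p = 3.28e-10); 6.08% of genes tested had a called rise of that size or more. KLK4 stood at 92.4 and 84.6 in C4-2BENZR, against 102 and 104 in C4-2B. The groups did not overlap but lay close, and KLK4 fell 1.16-fold (log2 change −0.22 ± 0.06, limma adjusted p = 0.00898). That call was lost with total reads as the only scaling (−0.12, adjusted p = 0.135) and without C4-2BENZR replicate 2 (−0.16, 0.134) or C4-2B replicate 2 (−0.21, 0.0605). In RNA from whole cultures, fewer cells that express a gene and less RNA per cell cannot be told apart.

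The 2 non-kallikrein products listed in this table were higher by small steps. ACPP stood at 11.8 and 10.8 in C4-2BENZR, against 7.99 and 8.07 in C4-2B, from 436 reads against 311. It rose 1.41-fold (log2 change 0.44 ± 0.15, limma adjusted p = 0.0188), but the call was lost with DESeq2 (0.50, adjusted p = 0.0590) and when any 1 of the 4 libraries was left out (0.39 to 0.50, adjusted p = 0.0544 to 0.147). SPON2, which was among the abundant transcripts of both lines, stood at 1549 and 1516 in C4-2BENZR, against 1406 and 1287 in C4-2B. It rose 1.14-fold (log2 change 0.19 ± 0.05, limma adjusted p = 0.00565). This call did not hold without C4-2BENZR replicate 1 (0.17, adjusted p = 0.157), without C4-2BENZR replicate 2 (0.20, 0.112) and without C4-2B replicate 2 (0.12, 0.117). All 5 listed members passed the low-value filter and the test, as did 56.8% of all genes tested, and 3 rose and 2 fell, where 27.8% of all genes rose and 29.0% fell. Their groups did not overlap in any of the 5 cases, as for 77.4% of genes tested, so a called change is common in this comparison and the size of the KLK3 and KLK2 changes is what set them apart from ACPP, SPON2 and KLK4. Each form is a single line, and the labels do not say what the replicates of a line share, so the p-values cover the spread between these libraries only. Markers of other cell types also differed between these groups, each list mainly through 1 gene. Neuroendocrine markers, 4 of 6 listed, summed to 34.0 and 33.8 in C4-2BENZR, against 5.31 and 5.59 in C4-2B, of which ENO2, a glycolytic enzyme, made up 32.9 ± 0.808 in C4-2BENZR and 4.16 ± 0.245 in C4-2B (SD, n = 2 each). SYP was at 0.984 ± 0.656 in C4-2BENZR against 1.29 ± 0.442 in C4-2B, and INSM1 was at 0 in all 4 libraries. Fibroblast markers, 3 of 6 listed, summed to 54.9 and 50.6 in C4-2BENZR, against 17.7 and 13.4 in C4-2B. Of these sums the collagen gene COL1A1 made up 50.8 ± 3.72 in C4-2BENZR and 13.7 ± 1.97 in C4-2B. LUM was at 0.892 in C4-2BENZR against 0 in C4-2B, and PDGFRB at 1.06 ± 0.225 against 1.86 ± 1.09. The endothelial marker VWF (3.71 in C4-2BENZR against 7.39 in C4-2B) and the blood marker HBA1 (0.408 against 2.71) were lower. The basal markers KRT14 (0.528 against 0.388) and KRT15 (0.746 against 0.0518) were higher in mean at low levels. Their part in the changes of the secretory genes was not tested.

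**Figure D1:**
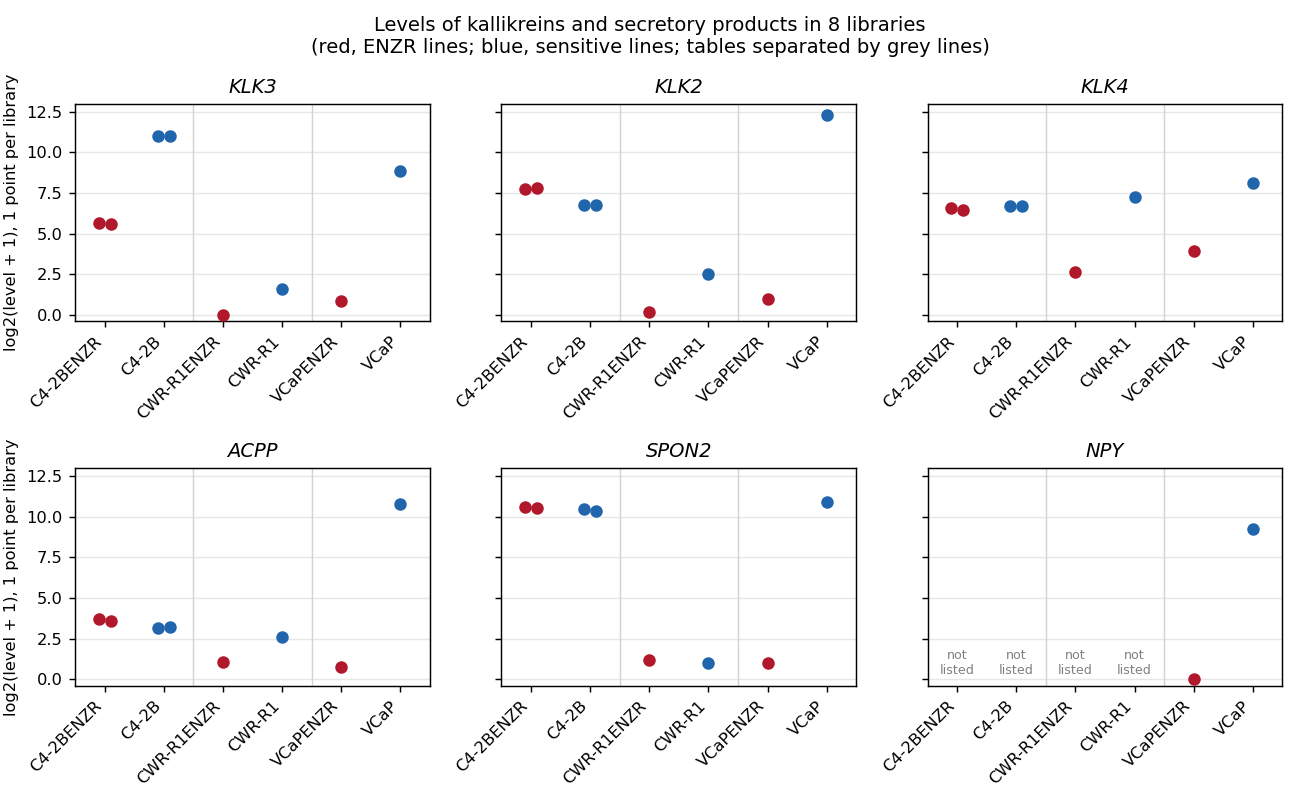
Level of each gene as log2(level + 1) on the vertical axis, 1 point per library, with the ENZR line (red) left of its sensitive line (blue) in each table and grey lines between tables. KLK3 was at 49.2 and 48.1 in C4-2BENZR against 2067 and 2024 in C4-2B, whereas all 6 genes were near the bottom of the axis, except KLK4 at 13.9, in the library labelled VCaPENZR.

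KLK2 rose while its tested neighbours fell. Along chromosome 19 the genes of the cluster follow one another as KLK1, KLK15, KLK3, KLK2, KLKP1 and KLK4. These 6 were tested in the C4-2B lineage: 5 fell and 1, KLK2, rose. Over all genes tested, 27.8% rose and 29.0% fell. The fall of KLK4 was only 1.16-fold, and its call was lost in 3 of the alternatives. KLK15, a prostate-expressed kallikrein, stood at 1.46 and 1.80 in C4-2BENZR, against 14.5 and 9.73 in C4-2B, a log2 change of −2.30 ± 0.20 (limma adjusted p = 8.43e-08). KLKP1, a transcribed pseudogene between KLK2 and KLK4, had 24 reads in C4-2BENZR against 137 in C4-2B and fell as well (−1.49 ± 0.22, limma adjusted p = 2.20e-05). KLK1, tissue kallikrein, was barely detected, with 11 reads in C4-2BENZR against 60 in C4-2B (−0.99 ± 0.24, limma adjusted p = 0.00238). KLK1 and KLKP1 reached the level of 1 that the filter asks for in the C4-2B libraries alone, so they could be tested only because they were higher there. The genes on the far side of KLK4, from KLK5 to KLK14, were not listed in this table apart from KLK12, which had 1 read.

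**Figure D2:**
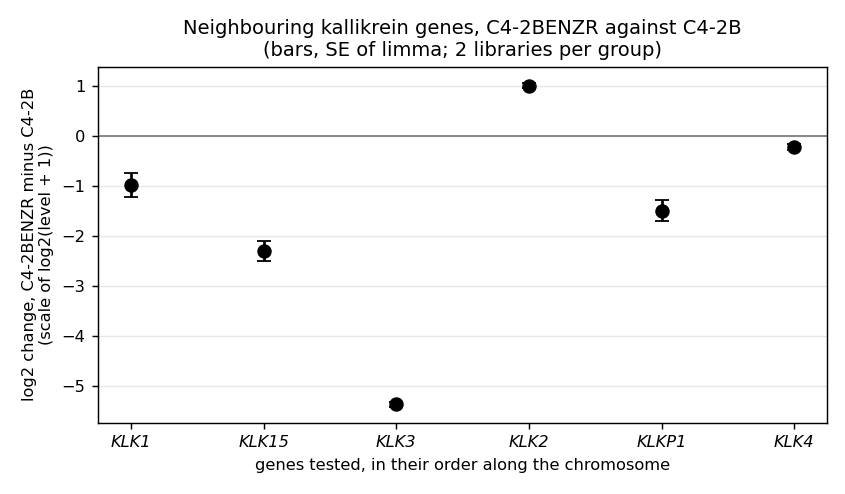
Log2 change between C4-2BENZR and C4-2B (vertical axis, on the scale of log2(level + 1), bars are the SE of limma, 2 libraries per group) for the 6 tested genes of the kallikrein cluster, in their order along chromosome 19. KLK3, at −5.37, and KLK2, at 1.01, are direct neighbours on opposite sides of 0. KLK1 and KLKP1 passed the filter through C4-2B alone, so they could be tested only because they were higher there.

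The make-up of the kallikrein signal changed with it. Per kilobase of transcript, KLK3 gave 19.5% and 19.3% of the summed level of the 3 kallikreins in the C4-2BENZR libraries, against 92.7% and 92.4% in the C4-2B libraries. KLK2 gave 40.6% and 43.8% in C4-2BENZR, against 2.32% and 2.42% in C4-2B. KLK4 gave 39.8% and 36.9% in C4-2BENZR, against 4.98% and 5.15% in C4-2B. Counted as reads, there were 0.233 and 0.214 KLK3 reads for each KLK2 read in C4-2BENZR, against 19.4 and 18.5 in C4-2B; such a ratio within a library does not depend on the scaling. The sum of the 3 per-length levels was 179.9 and 176 RPKM (RPM per kilobase of transcript) in C4-2BENZR, against 1477 and 1449 in C4-2B. The 6 genes together held 0.200% and 0.195% of the reads in C4-2BENZR, against 0.358% and 0.342% in C4-2B, and SPON2 made up most of those in C4-2BENZR. VCaP had another pattern, in which KLK2 gave 75.8%, KLK3 14.7% and KLK4 9.48% of the per-length signal. In CWR-R1 KLK4 gave 97.5%, in CWR-R1ENZR 98.9% (of 79 kallikrein reads) and in the library labelled VCaPENZR 92.4% (of 262).

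**Figure D3:**
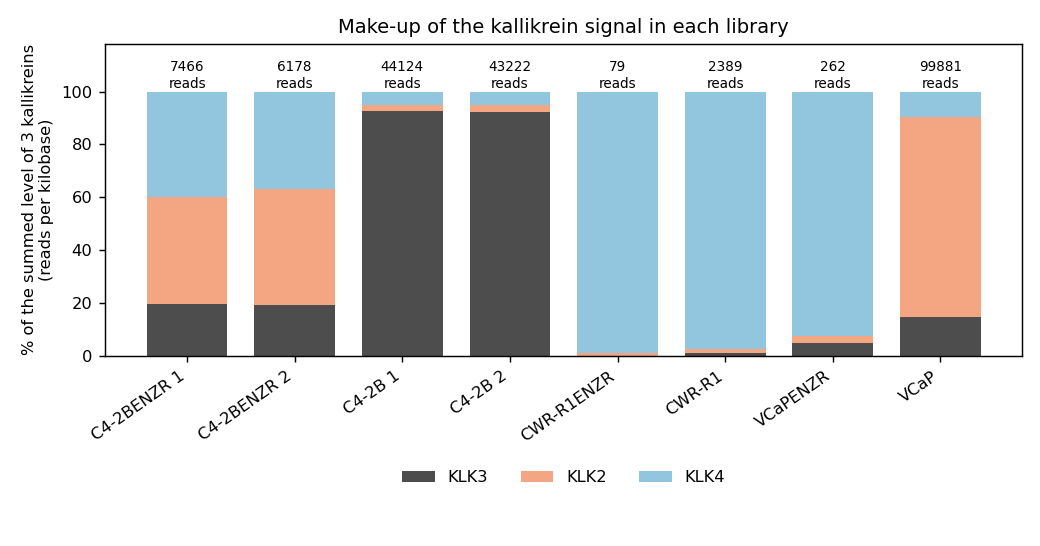
Share of KLK3, KLK2 and KLK4 in their summed level per kilobase of transcript (vertical axis, percent) in each library, with the number of kallikrein reads above each bar. KLK3 gave 92.7% and 92.4% in C4-2B, KLK2 75.8% in VCaP, and KLK4 over 90% in the CWR-R1 libraries and in the library labelled VCaPENZR.

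In the CWR-R1 lineage, with 1 library per line and so no replicate check or p-value, 4 of the 5 listed genes were lower in the resistant library. KLK4 carried nearly all of the signal and stood at 5.16 in CWR-R1ENZR, against 154 in CWR-R1, 29.9-fold lower (95% Clopper-Pearson interval 23.9 to 38.1, counting error only). KLK2 was at 0.134 (2 reads) in CWR-R1ENZR, against 4.72 (70 reads) in CWR-R1, 35.2-fold lower with a wide interval (9.40 to 297). KLK3 had no read in CWR-R1ENZR, against 29 reads (1.96) in CWR-R1, and was at least 9.73-fold lower against a floor of 3 reads. So the 3 kallikreins were lower together here, unlike in C4-2B. ACPP stood at 1.07 in CWR-R1ENZR, against 5.13 in CWR-R1, 4.78-fold lower (2.76 to 8.79). SPON2 had 19 reads in CWR-R1ENZR against 15 in CWR-R1, and its interval (0.606-fold to 2.66-fold) spans no difference. KLK4 and ACPP passed the filter of a level of 5 in at least 1 of both libraries, and both were at least 2-fold lower on log2(level + 1), where 10.3% of the genes past that filter were. ACPP passed through CWR-R1 alone, so it had to be lower, and KLK2, KLK3 and SPON2 did not reach the filter. Markers of other cell types went both ways. Of the neuroendocrine markers, 3 of 6 listed, ENO2 was at 215 in CWR-R1ENZR against 335 in CWR-R1, SYP at 31.8 in CWR-R1ENZR against 7.49 in CWR-R1, and INSM1 at 1.54 in CWR-R1ENZR against 0 in CWR-R1, for sums of 249 in CWR-R1ENZR and 343 in CWR-R1. Of the fibroblast markers, 2 of 6 listed, COL1A1 was at 63.6 in CWR-R1ENZR against 22.2 in CWR-R1 and LUM at 2.81 in CWR-R1ENZR against 11.6 in CWR-R1. KRT15, the 1 basal marker listed of 4, was at 20.6 in CWR-R1ENZR against 0 in CWR-R1. Endothelial markers, 2 of 4 listed, were both higher in CWR-R1ENZR. VWF was at 26.5 there against 5.73 in CWR-R1, and KDR at 1.07 against 0 in CWR-R1. Their part was not tested.

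In the VCaP table all 6 genes were listed, and sensitive VCaP was the line richest in them: together they held 0.962% of its reads, against 0.00178% in the library labelled VCaPENZR. KLK2 stood at 0.953 (16 reads) in the library labelled VCaPENZR, against 4945 in VCaP, 5191-fold lower (3196 to 9082, counting error only). ACPP stood at 0.655 against 1751 in VCaP, 2673-fold lower (1494 to 5356), and SPON2 at 0.953 against 1898 in VCaP, 1992-fold lower (1227 to 3486). KLK3 stood at 0.774 against 465 in VCaP, 601-fold lower (351 to 1129). NPY had no read in the library labelled VCaPENZR, against 10838 reads (617) in VCaP, and was at least 3454-fold lower. KLK4 differed least and was the only gene clearly present in the library labelled VCaPENZR. It stood at 13.9 there against 276 in VCaP, 19.9-fold lower (17.4 to 22.8). All 6 were past 2-fold, as were 22.0% of the 12502 genes past the filter, though all but KLK4 passed it through VCaP alone and so had to be lower; 14 genes (0.112%), these 5 without KLK4 among them, had a log2 ratio of level + 1 at least as low as that of KLK3. Since this library resembled the CWR-R1 libraries and not VCaP, a change under resistance and a difference between lines cannot be told apart in this comparison. Neuroendocrine markers, 5 of 6 listed, summed to 1039 in the library labelled VCaPENZR against 266 in VCaP, but ENO2 alone was higher, at 1039 in the library labelled VCaPENZR against 14.5 in VCaP. The other 4 were lower. CHGA was at 0 in the library labelled VCaPENZR against 69.3 in VCaP, and CHGB at 0.0595 against 109. SYP was at 0.834 against 57.4 in VCaP, and INSM1 at 0 against 15.5. In the CWR-R1 table ENO2 was at 215 in CWR-R1ENZR and 335 in CWR-R1. Other markers went both ways against VCaP. KRT15 (19.2 in the library labelled VCaPENZR against 0.512 in VCaP), COL1A1 (17.0 against 8.25) and VWF (18.6 against 3.13) were higher. KRT14 (0 against 14.7), LUM (0.238 against 21.2) and HBA1 (1.37 against 2.45) were lower. Their part was not tested. In RPM, KLK4 was at 14.4 in the library labelled VCaPENZR, 5.31 in CWR-R1ENZR and 150 in CWR-R1. KLK2 was at 0.985 RPM in the library labelled VCaPENZR, 0.138 in CWR-R1ENZR and 4.59 in CWR-R1.

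**Figure D4:**
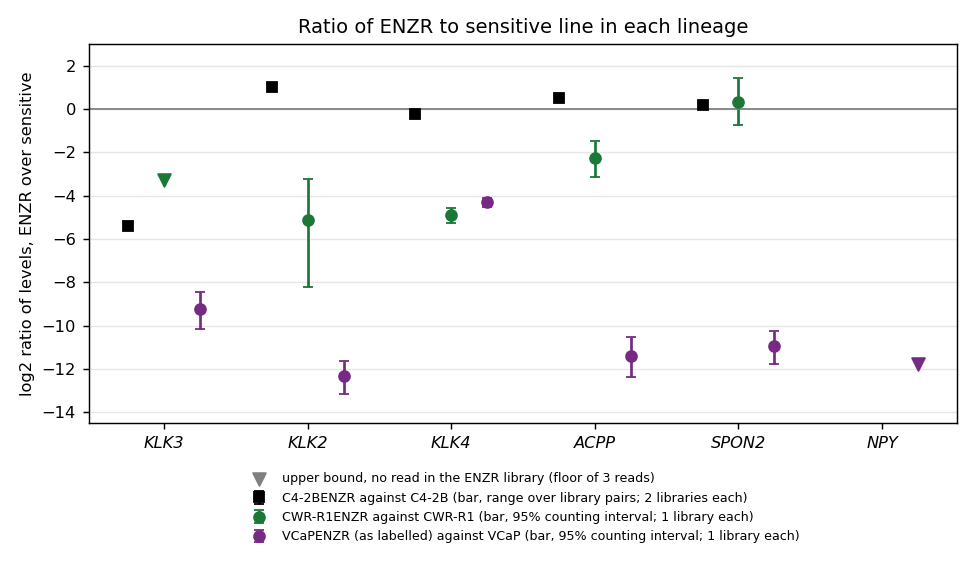
Log2 ratio of the ENZR to the sensitive line (vertical axis) for each gene and lineage. Squares are ratios of means with the range over the 4 library pairs, circles are ratios of single libraries with 95% counting intervals, and triangles are upper bounds where the ENZR library had no read. KLK2 lies above 0 in C4-2B (1.01) and far below it in both other lineages.

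Setting the 6 lines side by side in RPM gave an order that differed among genes. This is a description, since the tables list different genes and 4 lines have 1 library, and the intervals are exact Poisson intervals for counting error. KLK3 was highest in C4-2B (2003 and 1959), then VCaP (450) and C4-2BENZR (51.4 and 49.7), and its intervals overlapped for CWR-R1 (1.27 to 2.73) and the library labelled VCaPENZR (0.426 to 1.37). KLK2 was highest in VCaP (4780), then C4-2BENZR (221 and 233), C4-2B (103 and 106) and CWR-R1 (4.59), and no neighbouring intervals overlapped. Of the 5 genes listed in all tables, KLK4 differed least between the sensitive lines: VCaP was at 267, CWR-R1 at 150 and C4-2B at 99.1 and 100.4. C4-2BENZR was at 96.5 and 87.5. The interval of C4-2BENZR replicate 1 (92.3 to 101) overlapped that of C4-2B replicate 1 (94.7 to 104). The interval of C4-2BENZR replicate 2 (83.1 to 92.1) lay below those of both C4-2B replicates (94.7 to 104 and 96.1 to 105). ACPP was at 1692 in VCaP and at most 12.3 elsewhere (C4-2BENZR replicate 1), with overlapping intervals for CWR-R1ENZR (0.631 to 1.79) and the library labelled VCaPENZR (0.338 to 1.21). SPON2 split the lines in 2 sets, from 1834 in VCaP to 1246 in C4-2B replicate 2 on the one side, and CWR-R1ENZR (1.31), the library labelled VCaPENZR (0.985) and CWR-R1 (0.984), whose intervals overlapped, on the other. NPY was at 596 in VCaP and without a read in the library labelled VCaPENZR, which at a floor of 3 reads allows up to 0.185.

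Genes with a similar course over the 6 lines were ranked by the root mean square difference of their log2(level + 1) after centring each gene, among 12303 genes. The nearest to KLK4 were ZNF385B (0.53), SEMA4A (0.54) and TMEM136 (0.65). The nearest to KLK2 was THBS1, which encodes the matrix protein thrombospondin 1 (0.72; 145 and 141 in C4-2BENZR, 51.0 and 53.3 in C4-2B, 2608 in VCaP), followed at a distance by FBLN2 (1.63) and the metalloreductase gene STEAP2 (1.69). No gene came within 1 log2 unit of KLK3: PRUNE2 (1.56), PPFIA2 (1.68) and GUCY1A3 (1.86) were nearest. PRUNE2 hosts an antisense gene, PCA3, in an intron, and strand use in counting is not stated, so its reads are uncertain. The nearest to ACPP were PLA2G2A, which encodes a secreted phospholipase (0.96), FAM198B (1.12) and FSTL1 (1.23). For SPON2 the 2 nearest of all genes were the members KLK3 (1.92) and KLK2 (1.95), then IRX4 (2.09), although KLK3 and KLK2 lay 2.38 apart.

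Related genes moved in both directions in the C4-2B lineage. Over all genes tested the median log2 change was −0.000751. The counts below stand beside 27.8% of all genes tested that rose and 29.0% that fell, and several lists lie near those shares. Of 34 other androgen-activated genes tested, 16 rose and 11 fell, with a median of 0.16, and 7 fell without C4-2BENZR replicate 2. STEAP4, a metalloreductase, reached 8.66 ± 0.0468 in C4-2BENZR (SD, n = 2), where the C4-2B libraries held 2 reads in all, and NDRG1, a stress-responsive gene, rose 3.72-fold to 256 ± 15.5 in C4-2BENZR, against 68.8 ± 12.4 in C4-2B. STEAP4 passed the filter through C4-2BENZR alone, so it could be tested only because it was higher there. On the other side GNMT, a glycine methyltransferase, fell 3.76-fold, the amino acid transporter SLC43A1 2.74-fold, CENPN, a centromere protein, 2.38-fold and PMEPA1, an inhibitor of TGF-beta signalling, 2.19-fold. Of 14 regulators of the luminal secretory program, 7 rose and 5 fell (median 0.15), but 2 fell without C4-2BENZR replicate 1, without C4-2BENZR replicate 2 or with total reads as the only scaling. SOX9, a developmental transcription factor, rose 2.70-fold to 12.4 ± 0.960 in C4-2BENZR, against 4.57 ± 1.14 in C4-2B, and KLF5, a zinc finger transcription factor, rose 1.98-fold, while HOXB13, a homeobox gene of prostate identity, fell 1.43-fold and XBP1, a regulator of the secretory pathway, 1.40-fold.

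Of 8 other prostate secretory products tested, 2 rose and 3 fell (median −0.22), near the shares of all genes, and without C4-2BENZR replicate 1 only 1 rose. GDF15, a secreted stress cytokine, fell 5.30-fold to 22.9 ± 3.43 in C4-2BENZR, against 121 ± 7.98 in C4-2B, and PSCA, prostate stem cell antigen, fell 4.90-fold. CLU, the secreted chaperone clusterin, rose 1.63-fold, and RLN2, a relaxin, was at 1.74 ± 0.413 in C4-2BENZR against 0.568 ± 0.437 in C4-2B, a rise (limma adjusted p = 0.0115) that was lost in 4 of 15 alternatives, where the adjusted p reached 0.151. RLN2 also passed the filter through C4-2BENZR alone, so it could be tested only because it was higher there. Of 8 kallikrein inhibitors and substrates tested, 6 rose and 1 fell (median 0.60). IGFBP3, a growth factor binding protein that KLK3 can cleave, rose 6.76-fold to 19.8 ± 1.07 in C4-2BENZR, against 2.92 ± 0.994 in C4-2B, fibronectin (FN1) rose 4.29-fold, IGFBP5 5.27-fold and F2RL1, a protease-activated receptor, 1.71-fold, and the serpin SERPINB6 fell 1.65-fold. IGFBP5 was at 1.91 ± 0.0891 in C4-2BENZR against 0.362 ± 0.0722 in C4-2B. It passed the filter through C4-2BENZR alone, so it could be tested only because it was higher there. Of 4 genes of NPY reception and peptide processing tested, 2 rose and 1 fell (median 0.34), and 2 fell without C4-2B replicate 1. The proprotein convertase inhibitor precursor PCSK1N rose 4.51-fold and carboxypeptidase E (CPE) 1.38-fold, and DPP4, a membrane peptidase that can trim NPY, fell 2.62-fold. Of 11 acid phosphatases and extracellular nucleotide enzymes tested, 3 rose and 4 fell (median −0.06), again near the shares of all genes, and 1 rose without C4-2BENZR replicate 2, against 5 with total reads as the only scaling. ENPP1 fell 4.17-fold and ENTPD2 3.30-fold, both enzymes that split extracellular nucleotides, whereas the adenosine receptor ADORA1 rose 3.20-fold, adenosine deaminase (ADA) 1.48-fold and the lysophosphatidic acid phosphatase ACP6 1.46-fold. ADORA1 was at 2.65 ± 0.269 in C4-2BENZR against 0.826 ± 0.144 in C4-2B. It passed the filter through C4-2BENZR alone, so it could be tested only because it was higher there. The calls for ADA and ACP6 were lost without C4-2BENZR replicate 2 (limma adjusted p = 0.104 for ADA and 0.0766 for ACP6).

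The same lists in the lineages with 1 library per line were counted by a difference of at least 2-fold on log2(level + 1). In CWR-R1, where 9.79% of genes past the filter were that much higher in CWR-R1ENZR and 10.3% lower, 5 of 32 other androgen-activated genes were higher and 12 lower (median −0.54, against −0.0183 over all genes). Of these, HPGD, STEAP2 and EAF2 passed the filter through CWR-R1 alone and MAF through CWR-R1ENZR alone, so their direction was fixed. Among the other kallikreins KLK1, KLK8, KLK15 and KLKP1 were lower, but the last 3 passed the filter through CWR-R1 alone, and KLK11 and KLK14, which were higher in CWR-R1ENZR (4.69 against 2.23 and 1.47 against 0.27 in CWR-R1), did not reach it. The luminal regulators went the other way, with 3 of 14 higher and 0 lower (median 0.22; no test, since there is 1 library per line). In the VCaP table, where 21.1% of genes past the filter were at least 2-fold higher in the library labelled VCaPENZR and 22.0% lower, 5 of 35 androgen-activated genes were higher and 20 lower (median −1.17, against 0.00478 over all genes). There 2 of 14 luminal regulators were higher and 9 lower (median −1.56), and 2 of 7 other secretory products were higher and 4 lower (median −2.40). Several of these genes passed the filter through 1 library alone, so their direction was fixed. Among the secretory products, TGM4 and RLN1 passed through VCaP alone. So did the androgen-activated genes HPGD, PART1, TRPM8, STEAP2, STEAP4, PMEPA1 and SLC43A1. TIMP1, KLF5 and TSC22D3 passed through the library labelled VCaPENZR alone.

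**Figure D5:**
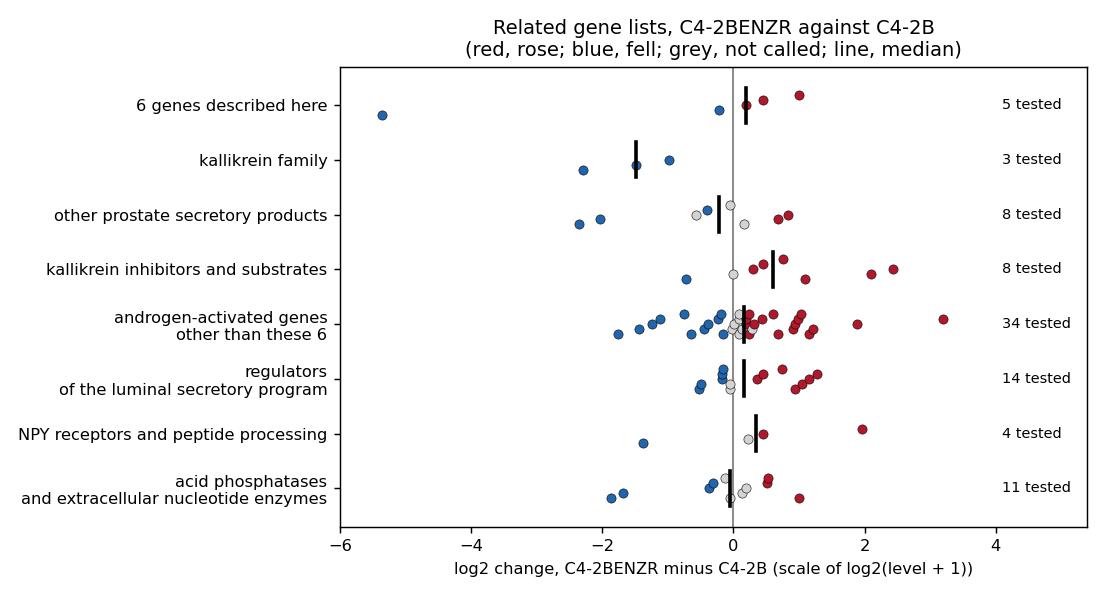
Log2 change between C4-2BENZR and C4-2B on the scale of log2(level + 1) (horizontal axis) for the tested genes of each list, 1 point per gene, with those that rose in red, those that fell in blue and those not called in grey; the black line is the median. The 3 other kallikreins lie below 0, KLK1 and KLKP1 among them having passed the filter through C4-2B alone, and the remaining lists hold genes on both sides of 0. STEAP4, RLN2, IGFBP5 and ADORA1 passed the filter through C4-2BENZR alone.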

How the data were processed

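The 6 genes and the related gene lists were chosen with earlier results of these data known. Polyadenylated RNA of 8 libraries was sequenced as paired ends, and reads were processed on hg19, per the submitters' processing notes, and the sources used here do not name the aligner, the counting program, its use of strand or the normalization software. Deposited by the authors was 1 table per lineage, of 13969 to 14809 genes, with a signal value per gene and library: reads divided by a scaled library size, close to CPM. Within a tolerance of 0.02 reads, dividing by what 1 read is worth turned 100% of the deposited signal values of each library into whole reads (14503586 to 20248655 reads per library). The authors' own fold changes and p-values were left out.

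In C4-2B, limma 3.58.1 was fitted to log2(level + 1) of genes that reached a level of 1 in 2 or more libraries (trend, two-sided, R 4.3.3), with Benjamini-Hochberg adjustment over 13280 genes and a threshold of 0.05. The test was also run on simulated counts, drawn with the same dispersion for every gene and with few changed genes. That setting differs from these data, where many genes were called, so nothing is concluded from it. Lineages with 1 library per line were given as ratios with 95% Clopper-Pearson intervals, and a floor of 3 reads where a library had none; both describe counting error alone, since reads are not independent molecules. Per-length levels used the principal transcripts of GENCODE 29 (1347 to 3125 bases for the members other than NPY), which the authors may not have counted on. Named list genes were the 4 with the largest change per list among those called and up to 2 that went the other way; some genes so chosen are not reported here. Alternatives were edgeR 4.0.16, DESeq2 1.42.0 and limma-voom on recovered reads, other scalings, filters and pseudocounts, a replicate block and each library left out; those on list counts and list genes were added after seeing the data.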

Additional observations from a re-analysis of the deposited data

Results flagged for a closer look

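KLK2 and ACPP were higher in the ENZR line in C4-2B and lower in both other lineages. SPON2 was higher in C4-2BENZR and lower only in the library labelled VCaPENZR. The differences between lineages were not tested, since only C4-2B has replicates. In the VCaP table a change under resistance and a difference between lines cannot be told apart. The C4-2B calls were lost in 5 of 16 alternatives for ACPP and in 3 of 16 for SPON2. As log2 differences of level + 1, KLK2 was at 1.01 in C4-2BENZR against C4-2B, −2.34 in CWR-R1ENZR against CWR-R1 and −11.31 in the library labelled VCaPENZR against VCaP. ACPP was at 0.44 in C4-2BENZR against C4-2B, −1.56 in CWR-R1ENZR against CWR-R1 and −10.05 in the library labelled VCaPENZR against VCaP. SPON2 was at 0.19 in C4-2BENZR against C4-2B and −9.93 in the library labelled VCaPENZR against VCaP; in CWR-R1 its interval spans no difference.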

How the results depend on the processing

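The calls for KLK3 (log2 change −5.39 to −5.26) and KLK2 (0.96 to 1.11) held in the C4-2B lineage under all 16 alternatives, and KLK4, ACPP and SPON2 kept their direction under all of them. With the replicate as a block, limma called 8248 genes and edgeR 8200, against 7547 without it, and the block changed no call among the members. Same-numbered replicates of C4-2BENZR and C4-2B, whose labels say nothing of a shared batch, did not deviate together (r = 0.0502 over 13280 genes), so the numbers give no pairing. With total reads as the only scaling KLK4 was at −0.12 (adjusted p = 0.135), the median gene moved to 0.10 and the calls split into 4757 higher and 2923 lower, against 3691 and 3856. With DESeq2 ACPP was at 0.50 (adjusted p = 0.0590). Leaving out 1 library at a time gave 4671 to 6544 called genes, the lowest without C4-2BENZR replicate 1 (4671) and without C4-2BENZR replicate 2 (4731), and 2 to 4 called members, with 3 without C4-2BENZR replicate 1, 2 without C4-2BENZR replicate 2 and 2 without C4-2B replicate 2. The log2 changes then ran from −0.28 to −0.16 for KLK4, 0.39 to 0.50 for ACPP and 0.12 to 0.25 for SPON2. In these fits 1 line has 1 library, which is assumed to vary like the other. In the lineages with 1 library per line, a pseudocount pulls low levels together by construction. With a pseudocount of 5 the log2 ratios in CWR-R1 were −0.92 for KLK2, −0.48 for KLK3, −3.97 for KLK4 and −0.74 for ACPP, and in the VCaP table −9.70 for KLK2, −6.35 for KLK3, −3.90 for KLK4, −8.28 for ACPP, −8.32 for SPON2 and −6.96 for NPY. With a pseudocount of 0.5 they were −3.04 for KLK2 and −2.30 for KLK3 in CWR-R1 and −10.27 for NPY in the VCaP table. Depth limits KLK3, KLK2 and SPON2 in the CWR-R1 libraries, where each had at most 70 reads.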

Other observations

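Other kallikreins were listed in the CWR-R1 and VCaP tables. KLK11, a trypsin-like kallikrein, had 573 reads (34.1) in the library labelled VCaPENZR and none in VCaP, and 70 reads (4.69) in CWR-R1ENZR against 33 (2.23) in CWR-R1. KLK1 was at 18.3 in the library labelled VCaPENZR against 0.114 (2 reads) in VCaP, and at 8.11 in CWR-R1ENZR against 19.0 in CWR-R1. KLK15 was at 0.774 in the library labelled VCaPENZR against 6.49 in VCaP, and at 0.938 in CWR-R1ENZR against 6.88 in CWR-R1. It passed the filter through the sensitive library alone in both tables, so its direction there was fixed. KLK11 and KLK1 passed it in the VCaP table through the library labelled VCaPENZR alone. In that table a change under resistance and a difference between lines cannot be told apart. KLKP1 had 1 read in CWR-R1ENZR against 91 in CWR-R1 and was not listed in the VCaP table. With 1 library per line these values have no replicate check.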
